A study of Mus musculus with 3 samples.

Results

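The genes described here encode signals by which a cell invites or refuses engulfment, and the macrophage receptors that read them: Cd47, Cd24a, Calr, Lrp1, Slamf7, Sirpa, Pilra and Siglec1. These 8 genes were chosen by name for their function, with earlier results of these data known. Together they had 16 probes among 55681 on the array, which carried 34821 gene names. All 8 were found, and for all 8 the probe used to represent the gene (its brightest) was well above background, by the scanner software's own mark for a spot clearly brighter than its surroundings, on each of the 3 arrays. The same held for 15 of the 16 probes.

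The samples were bone marrow-derived macrophages (BMDMs) of C57BL/6J mice, grown from femur and tibia marrow with macrophage colony-stimulating factor and then stimulated for 20 h. The first condition received CpG alone, a DNA that triggers Toll-like receptor 9. Another received IFN-γ together with IL-10RB, an antibody that blocks the IL-10 receptor, and is called IFN-γ + αIL-10R below. The last received all of these, and is called Triple. There was 1 array per condition and no unstimulated array, so IFN-γ + αIL-10R served as the reference for both CpG-containing conditions. The sources used here do not say how many mice or cultures went into each RNA. Without replicates no test between conditions was possible, and every fold below compares 1 array with another. Values are processed signals, the background-subtracted spot intensities on a linear scale, and folds were taken after scaling the arrays to each other. The ± values are the spot error given by the scanner software. A difference over 2 of these errors is called larger than the measurement error, which leaves out all variation between cultures. For bright spots this error was a near-constant share of the signal, so most log2 folds carry the same 0.20. The SD of a log2 fold from repeated spots was smaller, at 0.13. Some steps called inside the measurement error below exceed 2 of these SDs, so that call depends on the error used. A fold past 2 in either direction is called higher or lower. The 3 comparisons share arrays pairwise and are not independent of each other.

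On macrophages, SIRPα binds CD47 on a neighbouring cell and, through tyrosine phosphatases, restrains engulfment, which is why CD47 is known as a don't-eat-me signal. Calreticulin exposed on a cell surface has the opposite role and is read by LRP1, a large endocytic receptor. SLAMF7 binds itself on other blood cells and has been linked to macrophage engulfment of such cells together with the integrin Mac-1. PILRα, Siglec-1 and the CD24 receptor Siglec-G recognise sialylated surfaces, PILRα and Siglec-G being inhibitory.

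The arrays were alike in depth of signal. Between 44.4% and 46.0% of spots were well above background, no spot was saturated, and repeated spots of 1 probe had a standard deviation of 0.0804 to 0.0961 on the log2 scale. All 3 arrays came from 1 slide and 1 scan. Of the macrophage marker list, 7 of 8 genes were measured, and all 7 were well above background on every array, Csf1r and Adgre1 among them. Array signals from a whole culture cannot separate fewer expressing cells from less RNA per cell.

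The probes that carry the 3 genes past 2-fold are shown first, each by the first 30 of its 60 bases, as the array design lists them. Positions are those of the whole target in mm9, as the array files give them. Gene models of that build were not used here, so exon and untranslated parts are not assigned. The Pilra probe used for its values lies at chr5:138264617-138264676 on the minus strand, and 2 other probes at chr5:138263180-138263239 and chr5:138276560-138276619 gave a like pattern. The Slamf7 probe lies at chr1:173562534-173562593 and the Lrp1 probe at chr10:126975573-126975632, both on the minus strand.
Pilra, A_55_P2129354: agtcacctttgtttctagtaggaagactct
Pilra, A_55_P2129348: tagccttgggtcagctatgtattcagcatg
Pilra, A_55_P2090617: acaacagaaggcatacagttttggcagtca
Slamf7, A_55_P2012989: tgagccaggtgctgtgttacactttcatgg
Lrp1, A_51_P193794: tggggttagttcaggggaggtggagtcctc

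Of the 8 genes, 2 were higher and 1 was lower in Triple than in IFN-γ + αIL-10R: Pilra and Slamf7 against Lrp1. Among the 18055 genes measurable in that comparison, 6.57% were higher and 9.32% lower. In CpG against the same reference only Pilra was past 2-fold, as a higher signal, where 5.06% of 18271 genes were higher and 5.85% lower. In Triple against CpG, Slamf7 was higher and Lrp1 was lower, where 7.48% of 18326 genes were higher and 8.34% lower. Among genes well above background on both arrays of a comparison, as all 8 were, these shares were 5.22% and 8.28%, 3.81% and 4.91%, and 6.21% and 7.01%. The median log2 fold of the 8 genes was -0.03, -0.01 and -0.02 in the 3 comparisons, beside -0.05, 0.00 and -0.06 for all genes. In all 8 genes the lowest and the highest array differed by more than the measurement error, but only 5 of the 16 steps between neighbouring conditions did. The same shares over all genes were not computed. Picking the lowest and highest of 3 arrays after the fact favours such a difference in any gene.

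**Figure D1:**
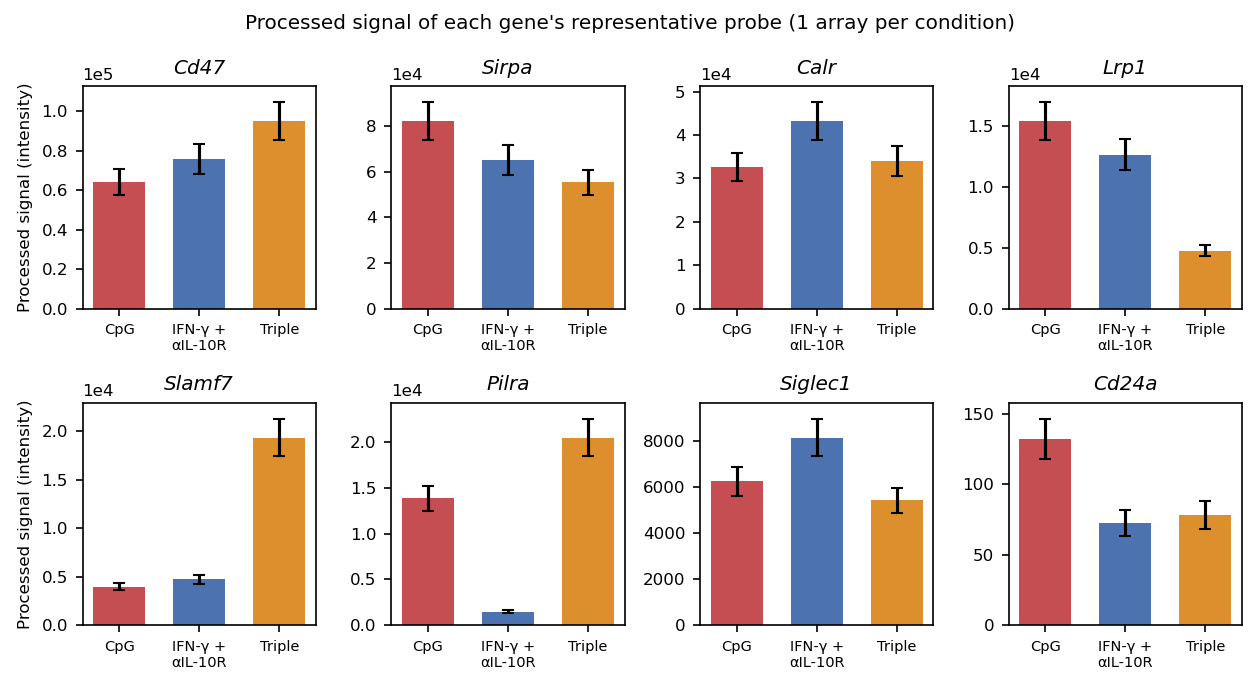
Processed signal (linear intensity, from 0) of the representative probe of each gene in CpG, IFN-γ + αIL-10R and Triple, 1 array each; error bars are the software's error for the spot. Pilra was dim in IFN-γ + αIL-10R alone, Slamf7 was bright in Triple alone, Lrp1 was dim in Triple alone, and the other 5 genes stayed within 2-fold.

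Cd47, Calr and Cd24a encode signals that are read when carried by a target cell, but the RNA measured here was that of the macrophage cultures themselves, and the labels name no target cells. Cd47 gave 64167 ± 6417 in CpG, 76051 ± 7605 in IFN-γ + αIL-10R and 95037 ± 9504 in Triple. The signal was therefore lowest in CpG and highest in Triple, 1.54-fold apart, and neither step to the middle condition exceeded the measurement error. A second probe, at chr16:49906910-49911025 on the plus strand of mm9 (its target spans 4116 bases of genome), read 52638, 64696 and 71182 in the same order of conditions. The remaining Cd47 probe was dim and read 116, 116 and 174. All 3 Cd47 probes were brightest in Triple and inside 2-fold.

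Calr, which encodes calreticulin, gave 32623 ± 3262 in CpG, 43154 ± 4315 in IFN-γ + αIL-10R and 34014 ± 3401 in Triple. It was brightest in the reference, 1.35-fold over CpG and 1.24-fold over Triple, and the latter step did not exceed the measurement error.

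Cd24a, a glycosylphosphatidylinositol-anchored sialoprotein of lymphoid and immature cells, was close to background. It gave 132 ± 14.3 in CpG, 72.5 ± 9.34 in IFN-γ + αIL-10R and 77.9 ± 9.82 in Triple, on arrays whose lowest signals well above background were 23.8, 26.7 and 26.3. The CpG signal was 1.79-fold that of the reference and 1.63-fold that of Triple, both larger than the measurement error and inside 2-fold. With another background correction, normexp, the log2 folds were 0.44 for CpG over the reference and -0.35 for Triple over CpG. These are under 2 of the errors, which were 0.24 for both folds. Of the 5 B cell markers reported, 2 were well above background on every array, and the summed marker signal was 885 in CpG, 279 in IFN-γ + αIL-10R and 179.7 in Triple. Most of it was Cd79b, at 801, 182 and 108. Cd79a, the other marker well above background, read 66.6, 75.5 and 43.6 and was highest in the reference, not in CpG. Ms4a1, Pax5 and Ebf1 were not well above background on any array. Of 7 neutrophil and precursor markers, Elane read 2839, 1615 and 1539, highest in CpG as Cd24a was. Ly6g read 555, 7699 and 2658, highest in the reference. Camp read 72.9, 17.5 (not well above background) and 139, highest in Triple. Mpo, Ngp, Ltf and Prtn3 were not well above background on any array. Of 6 erythroid markers, Epor alone was well above background, in CpG and the reference, at 109, 52.2 and 21.6. The measurable T cell markers stayed inside 2-fold. The part of other cell types in the Cd24a signal was not tested.

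Among the receptors linked to engulfment, Lrp1 gave 15394 ± 1539 in CpG, 12652 ± 1265 in IFN-γ + αIL-10R and 4754 ± 475 in Triple. The Triple array stood apart from the others, 2.60-fold below IFN-γ + αIL-10R (log2 fold -1.38 ± 0.20) and 3.12-fold below CpG (-1.64 ± 0.20). CpG and the reference differed by 1.20-fold, which is inside the measurement error. A dim second probe gave the same order, at 128, 116 and 56.1, and was lower in Triple by 2.02-fold and 2.20-fold. The remaining Lrp1 probe was not well above background on any array. When the log2 signals of all Lrp1 probes were averaged, dim ones included, the log2 folds shrank to -0.79 and -0.86 and no longer passed 2-fold.

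Slamf7 gave 3965 ± 397 in CpG, 4708 ± 471 in IFN-γ + αIL-10R and 19338 ± 1934 in Triple. The signal in Triple was 4.20-fold that of IFN-γ + αIL-10R (log2 fold 2.07 ± 0.20) and 5.07-fold that of CpG (2.34 ± 0.20). The CpG array was 1.21-fold below the reference, inside the measurement error. Slamf7 had a single probe with a single spot. Around it were 135 spots of other single-spot probes well above background on all 3 arrays. Their median log2 fold was 0.02 for Triple over IFN-γ + αIL-10R. Of 8 markers of NK and plasma cells, which also carry SLAMF7, 2 were well above background on every array. The summed signal of all 8 was 1464, 3375 and 1749 in CpG, IFN-γ + αIL-10R and Triple. The 2 well above background ran opposite ways. Prdm1, a regulator of plasma cell formation, read 1152, 446 and 1258, 2.88-fold over the reference in Triple and 2.54-fold in CpG, while Klra8, an NK cell receptor gene, read 263, 2872 and 448, 6.27-fold and 11.1-fold below it. The other 6, Ncr1, Klrb1c, Gzma, Eomes, Jchain and Mzb1, were not well above background on any array. Of 6 dendritic cell markers, 2 were well above background in CpG, 3 in IFN-γ + αIL-10R and 4 in Triple. Of the 4 measurable, 3 were higher in Triple than in either other condition, and none was higher in CpG than in the reference. Among all genes, 6.57% were higher in Triple than in the reference and 7.48% higher than in CpG. Ccr7 read 319, 225 and 2892, 13.1-fold over the reference in Triple. Zbtb46 read 25.1, 36.3 and 133, 3.74-fold over it. Xcr1 was well above background in Triple alone, at a dim 60.7, and at least 2.33-fold over the reference. The summed signal of this list, 36445, 36274 and 32841, was nearly all Siglech, which stayed inside 2-fold, and Flt3 and Cd209a were not well above background on any array. The part of other cell types in the Slamf7 signal was not tested.

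Among the inhibitory receptors, Sirpa gave 82223 ± 8222 in CpG, 65168 ± 6517 in IFN-γ + αIL-10R and 55416 ± 5542 in Triple. This order was the reverse of that of Cd47, with CpG 1.43-fold over Triple, and neither step to the middle condition exceeded the measurement error.

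Pilra had the greatest spread of the 8 genes, at 13850 ± 1385 in CpG, 1461 ± 146 in IFN-γ + αIL-10R and 20490 ± 2049 in Triple. Both arrays with CpG were bright and the reference was dim, by 9.32-fold against CpG (log2 fold 3.22 ± 0.20) and by 14.3-fold against Triple (3.84 ± 0.20). The step from CpG to Triple, 1.54-fold, was larger than the measurement error but inside 2-fold. The probe at chr5:138263180-138263239 read 8948, 726 and 12243, which is 12.1-fold and 17.2-fold over the reference. The probe at chr5:138276560-138276619 read 4071, 565 and 7155, which is 7.09-fold and 12.9-fold. The remaining Pilra probe, at chr5:138277047-138277106, did not share this pattern: it was dim at 77.3, 44.0 and 50.1 and stayed inside 2-fold. No Pilra probe shared a run of more than 17 identical bases with a probe of its paralogs Pilrb1 and Pilrb2. Probes were compared with probes and not with the paralog transcripts, so binding of a probe to paralog RNA was not tested.

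Siglec1, the sialic acid-binding sialoadhesin of tissue macrophages, gave 6265 ± 627 in CpG, 8160 ± 816 in IFN-γ + αIL-10R and 5439 ± 544 in Triple. The reference was brightest, 1.47-fold over Triple and 1.32-fold over CpG, of which the former exceeded the measurement error. A dim second probe, at 113, 183 and 84.2, had the same order but was 2.12-fold lower in Triple than in the reference. The 2 probes thus fell on different sides of 2-fold, and the brighter one is the value used for the gene.

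**Figure D2:**
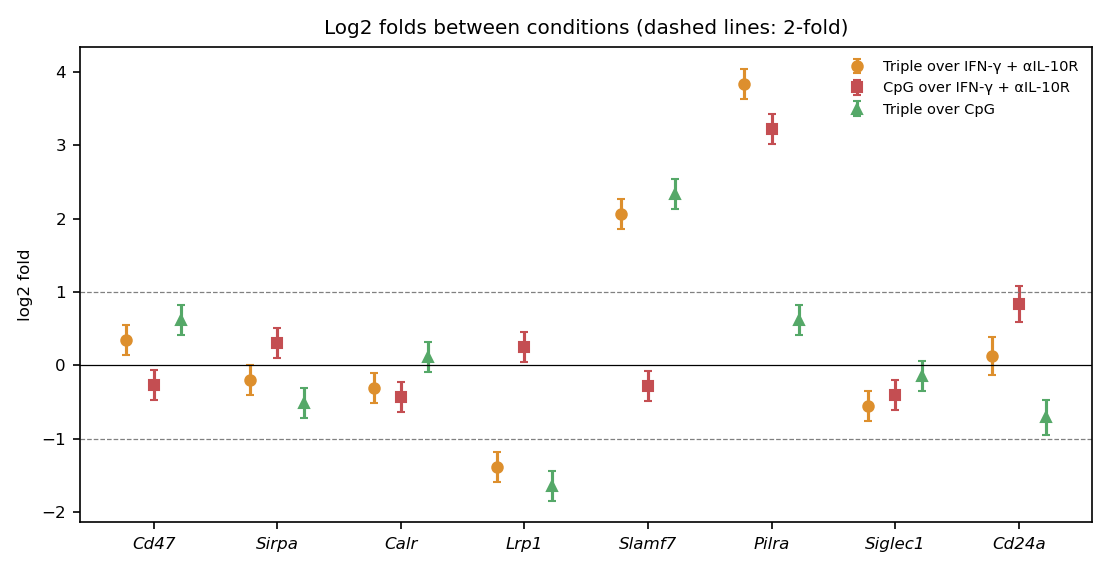
Log2 folds of the 8 genes in the 3 comparisons (circles, Triple over IFN-γ + αIL-10R; squares, CpG over IFN-γ + αIL-10R; triangles, Triple over CpG), with error bars from the software's spot errors and dashed lines at 2-fold. Pilra had both of its folds over the reference above the line, Slamf7 had both of its Triple folds above it, and Lrp1 had both of its Triple folds below it.

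**Figure D3:**
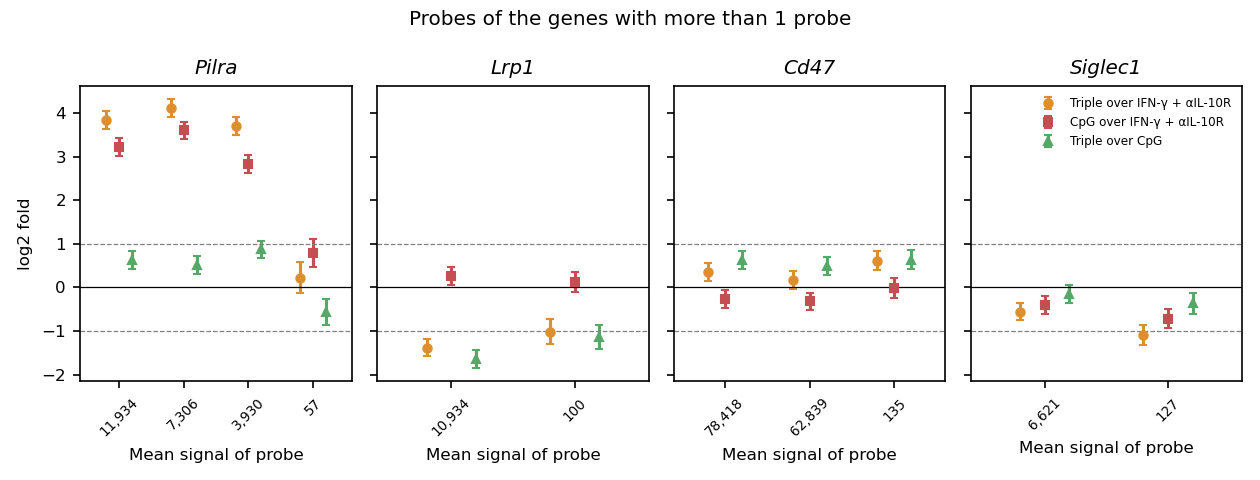
Log2 folds of every probe well above background for the 4 genes with more than 1 probe, ordered from left by the probe's mean signal, which is given on the x axis; markers and error bars as for the genes. The 3 brighter Pilra probes read 2.83 to 4.11 over the reference while the dim one stayed below 1, and the Lrp1 probes shared their direction.

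Genes of the same pathways were then taken from lists drawn up by function, with earlier results of these data known. The counts below are therefore not independent of the data. Of 70 listed genes, 66 were measured. Against IFN-γ + αIL-10R, 13 were higher and 5 lower of 58 measurable genes in Triple, where 6.57% of all genes were higher and 9.32% lower. In CpG 11 were higher and 5 lower of 58, where 5.06% of all genes were higher and 5.85% lower. Between the arrays with CpG, 9 of 60 were higher and 6 lower in Triple, where 7.48% of all genes were higher and 8.34% lower. The lists are small and were chosen by function, and each count below for Triple over the reference stands beside the same 6.57% and 9.32%. Their median log2 folds were 0.15, 0.04 and 0.07, beside -0.05, 0.00 and -0.06 for all genes.

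Around CD47 and SIRPα, 3 of 10 genes were higher and 1 was lower in Triple than in the reference. Thbs1 encodes thrombospondin-1, a soluble ligand of CD47, and read 116 in CpG, 189 in IFN-γ + αIL-10R and 5446 in Triple. It was 29.5-fold and 49.0-fold brighter in Triple than in the other conditions, while CpG alone lay below the reference by 1.66-fold. Sirpb1a and Sirpb1b, relatives of SIRPα that signal through an activating adaptor, were higher in both conditions with CpG: Sirpb1a by 2.46-fold in Triple and 2.64-fold in CpG, and Sirpb1b by 2.14-fold and 2.68-fold. No Sirpa probe shared more than 7 identical bases in a row with a probe of either. Binding of the Sirpa probe to their RNA was not tested. Ptpn6 and Ptpn11, which encode the phosphatases recruited by SIRPα, stayed within 1.30-fold of the reference. Among the glutaminyl cyclase genes, Qpctl, whose product acts on the SIRPα-binding end of CD47, stayed inside 2-fold. Qpct, which encodes the secreted enzyme, read 1542 in CpG, 10802 in IFN-γ + αIL-10R and 1027 in Triple. It was 7.12-fold below the reference in CpG and 10.3-fold below it in Triple. An action of the secreted enzyme on CD47 was not tested.

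Around calreticulin and LRP1, 1 of 14 genes was lower and none was higher in Triple than in the reference, and none of 13 was past 2-fold in CpG. The gene that was lower, Abca1, encodes a lipid exporter and read 2625 in CpG, 1625 in IFN-γ + αIL-10R and 599 in Triple, which was 2.66-fold below the reference and 4.22-fold below CpG. Triple was thus the dimmest array for Abca1 as it was for Lrp1. The other endoplasmic reticulum chaperones measured beside Calr, among them Hspa5, Canx and Pdia3, stayed inside 2-fold, as did the complement genes C1qa, C1qb and C1qc.

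Of the SLAM family and its adaptors, 2 of 13 genes were higher and 1 was lower in Triple than in the reference. Slamf6 read 68.3 in CpG, 108 in IFN-γ + αIL-10R and 287 in Triple, 2.72-fold over the reference and 4.37-fold over CpG. Slamf1 was well above background in Triple alone, where it was at least 4.98-fold over the reference and at least 5.69-fold over CpG. Cd84 went the other way, 2.31-fold below the reference in Triple. Slamf8 differed mainly by its low signal in CpG, at 1081 against 26870 in IFN-γ + αIL-10R and 49047 in Triple, 25.3-fold and 47.2-fold. Itgam, the α chain of Mac-1, was 2.51-fold over the reference in CpG and 1.58-fold in Triple, and its partner Itgb2 stayed inside 2-fold. The adaptors Fcer1g and Tyrobp stayed inside 2-fold, and Sh2d1a was not well above background on any array.

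Of the Siglec genes and the ligand gene Spn listed with them, 3 of 6 were higher and none was lower in Triple than in the reference (all genes, 6.57% and 9.32%). Spn, which encodes the sialylated mucin CD43, was 3.46-fold over the reference in Triple and 4.02-fold in CpG. Cd33 was 2.50-fold and Mag 2.53-fold over the reference in Triple, and both stayed inside 2-fold in CpG. Siglece was 2.03-fold over the reference in CpG and 1.94-fold in Triple. Siglecf, which the array names Siglec5, was well above background in CpG alone, at least 4.55-fold over the reference. Siglecg, the mouse receptor for CD24, was not well above background on any array.

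Of the other inhibitory receptors and their ligands, 5 of 15 genes were higher and 2 were lower in Triple than in the reference (all genes, 6.57% and 9.32%). Pilrb1 and Pilrb2 encode activating relatives of PILRα. Pilrb1 read 1595, 426 and 3082 in CpG, IFN-γ + αIL-10R and Triple, 3.68-fold over the reference in CpG and 7.39-fold in Triple. Pilrb2 read 2177, 425 and 4001, 5.04-fold and 9.62-fold. Both were dim in the reference and bright in the arrays with CpG, as Pilra was, and their probes shared no more than 11 identical bases in a row. Binding of these probes to each other's RNA was not tested. Cd200, a ligand of an inhibitory myeloid receptor, read 314, 45.8 and 2955, and its receptor gene Cd200r1 was 2.65-fold lower in Triple than in CpG. Cd274 encodes PD-L1, read 9287, 27931 and 77642, and was lower than the reference in CpG by 3.06-fold and higher in Triple by 2.84-fold. Lair1 and Cd300lf were below the reference in both arrays with CpG, Lair1 by 2.64-fold and Cd300lf by 5.52-fold in CpG. The class I genes B2m, H2-K1 and H2-D1, a further don't-eat-me signal, stayed inside 2-fold in all 3 comparisons.

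**Figure D4:**
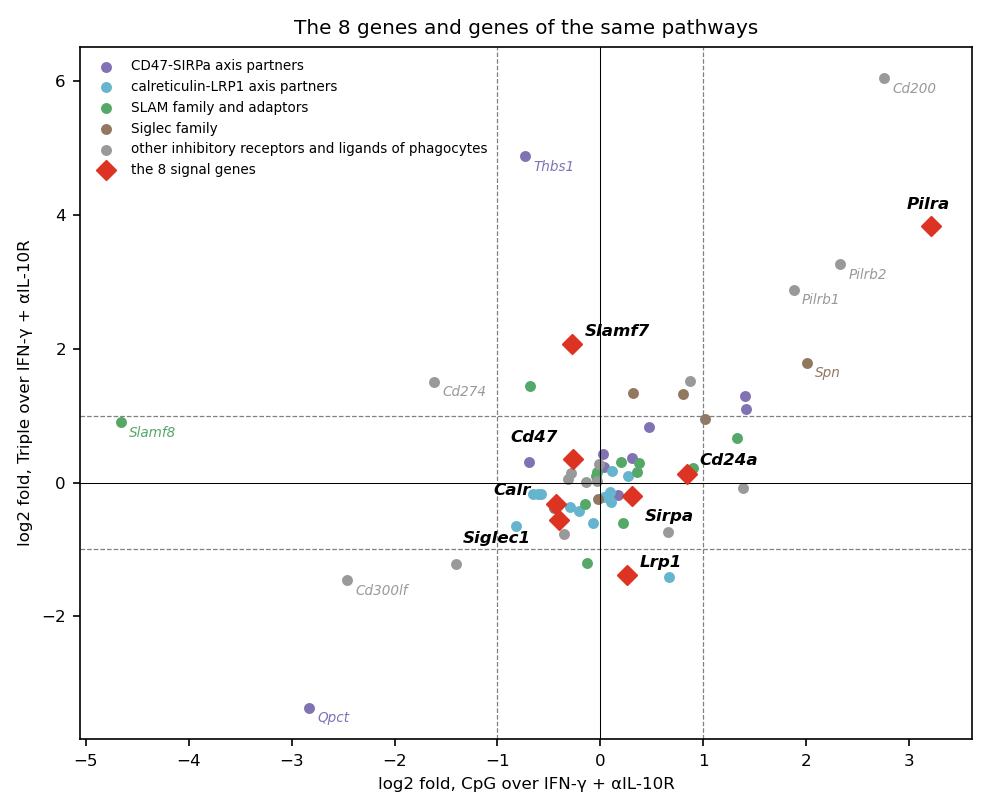
Log2 fold of CpG over IFN-γ + αIL-10R (x axis) against Triple over IFN-γ + αIL-10R (y axis), which share the reference array. Diamonds are the 8 genes, dots are genes of their pathways measurable in both comparisons, coloured by list, and dashed lines mark 2-fold. Genes measurable in only 1 of the comparisons, such as Slamf1 and Siglecf, are not shown. Pilra lies with Pilrb1, Pilrb2 and Cd200 at the upper right, Slamf7 is high in Triple only, and most of the genes lie inside the square of 2-fold.

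The genes whose pair of folds over the reference lay nearest to that of each gene past 2-fold were looked up among 10684 genes with a RefSeq symbol and a signal marked above background everywhere, by Euclidean distance between log2 folds. For Pilra these were Nfkbiz (3.35 in CpG and 3.88 in Triple, distance 0.13) and Cd14 (3.30 and 4.07, distance 0.24). For Slamf7 they were Slx4ip (-0.23 and 1.96, distance 0.12) and Nfkbib (-0.30 and 1.91, distance 0.16). For Lrp1 they were Cav2 (0.23 and -1.38, distance 0.03) and Hyal1 (0.26 and -1.33, distance 0.05). With 10684 candidates and only 2 folds per gene, close neighbours are easily found. Shared regulation with the named genes was not tested.

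RefSeq promoters of GRCm38.p6, a later build than that of the probes, were matched by symbol for 5 of the 8 genes, Slamf7, Pilra, Calr, Lrp1 and Cd47. The 250 bases before the start are shown for the 3 genes past 2-fold, with matches in capitals. The letters searched, on both strands, were TTCNNNGAA for GAS, TGANTCA for AP-1 and GAGGAA for PU.1. The Slamf7 window is chr1:171649000-171649249, the Pilra window chr5:137836279-137836528 and the Lrp1 window chr10:127621149-127621398, all on the minus strand.
Slamf7 promoter: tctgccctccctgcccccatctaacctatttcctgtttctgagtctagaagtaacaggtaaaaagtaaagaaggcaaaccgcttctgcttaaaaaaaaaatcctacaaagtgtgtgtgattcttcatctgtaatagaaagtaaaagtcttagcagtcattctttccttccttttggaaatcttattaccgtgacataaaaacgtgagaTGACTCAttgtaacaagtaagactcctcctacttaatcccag
Pilra promoter: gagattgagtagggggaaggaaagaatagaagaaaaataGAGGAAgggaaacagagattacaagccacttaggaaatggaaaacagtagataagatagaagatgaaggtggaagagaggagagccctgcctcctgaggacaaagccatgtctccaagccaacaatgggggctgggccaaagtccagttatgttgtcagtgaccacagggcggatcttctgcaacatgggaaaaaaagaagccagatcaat
Lrp1 promoter: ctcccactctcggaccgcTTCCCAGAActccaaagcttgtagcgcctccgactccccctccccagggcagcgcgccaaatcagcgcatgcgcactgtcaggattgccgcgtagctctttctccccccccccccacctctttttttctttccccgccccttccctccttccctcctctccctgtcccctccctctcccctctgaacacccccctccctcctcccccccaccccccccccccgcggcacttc
The Slamf7 window held an AP-1 match 42 bases before the start, found in 6.87% of 27025 promoter windows. The Pilra window held a PU.1 match 211 bases before the start, found in 23.1% of windows. The Lrp1 window held a GAS match 232 bases before the start, found in 7.18% of windows. The Calr and Cd47 windows held none of the 3 motifs. A match of letters describes the sequence and is not evidence of binding.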

How the data were processed

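RNA of BMDMs from the 3 conditions was labelled with Cy3 and hybridised to 1 slide of mouse Agilent arrays with 60-base probes. The authors extracted the spots with Agilent Feature Extraction 10.10.1.1 (file headers), and the deposited scanner files hold processed signals as intensity, background-subtracted by that software, with its error, background and outlier marks. The deposited table of the series holds log2 values that equal the log2 processed signal minus a constant per array (SD of the difference at most 0.0035; column medians -4.26, -4.38 and -4.27 for CpG, IFN-γ + αIL-10R and Triple). How the constants were set is not given in the sources used here. The table was used as an alternative. Probe positions are mm9, per the file headers.

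Groups were taken from the sample labels. Each array was scaled on the log2 scale by the 75th percentile over the probes detected on every array, because only 44.2% of probes were well above background. Controls and any spot the software marked as an outlier were dropped, spots of a probe were averaged, and the brightest probe stood for its gene. A gene was measurable where it was well above background on at least 1 of the arrays compared. A fold against a signal not well above background is a lower bound, against the higher of that signal and the array's lowest signal well above background. Errors of log2 folds combine the software's spot errors. The SD of a log2 fold from repeated spots was 0.13. The number of arrays limits the precision.

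Pathway genes named in the text come from the lists; 2 nearest genes are named per gene past 2-fold. The 8 genes and the lists were chosen with earlier results of these data known. In the marker lists, 1 B cell marker is not reported here. Accessions of 12 of 16 probes were RefSeq accessions, and all 12 matched the same symbol. Alternatives were other scalings, normexp background correction with an offset of 50 (limma 3.58.1, R 4.3.3), the filter on dim signals, the rule for several probes, outlier spots kept, and thresholds of 1.5-fold and 3-fold. Code ran in Python 3.11.15 with numpy 2.4.6 and pandas 2.3.3, and was tested on simulated data.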

Additional observations from a re-analysis of the deposited data

How the results depend on the processing

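Each of the 24 folds of the 8 genes was recomputed under 13 alternatives, and all 24 kept their sign. Of the 6 past 2-fold, 4 stayed past it under all 13, and the exceptions were both Lrp1 folds under the mean of all probes (-0.79 and -0.86), which averages in the dim probes. All 18 inside 2-fold stayed inside. Some alternatives could not move these folds, or only all of them alike. The filters on dim signals could not, because all 8 genes were well above background on every array. The rule for several probes could not for the 4 genes with 1 probe. Keeping outlier spots could only shift all folds of a comparison alike, because no probe of the 8 genes had an outlier mark. The other scalings except quantile normalization, no scaling among them, and the deposited table differ from the main setting by a constant per array. They therefore also shift all folds of a comparison alike or nearly so. Their shifts were too small to carry any fold of the 8 genes across 2-fold, so staying on 1 side of it under them tests little. Under spike-in scaling, the Cd24a log2 fold of Triple over IFN-γ + αIL-10R was 1.3e-04, so its sign carries no weight. The number of the 8 genes past 2-fold in Triple over CpG was 1 under the mean of all probes, in place of 2. With a threshold of 1.5-fold it was 5 there, and for CpG against IFN-γ + αIL-10R it was 2 in place of 1. The median log2 fold of the pathway lists for Triple over IFN-γ + αIL-10R was 0.0137 under spike-in scaling, in place of 0.15, and the median of all genes moved from -0.05 to -0.18 with it. Scaling by the 75th percentile over all probes moved that median to 0.07. With normexp correction, Triple had 806 genes higher and 1099 lower than IFN-γ + αIL-10R, in place of 1187 and 1682. The counts for CpG against the same array were 554 and 708, in place of 925 and 1068, and for Triple over CpG 941 and 916, in place of 1370 and 1529. With no filter on dim signals, the counts in the same order were 2522 and 3089, 2369 and 2502, and 2767 and 3022, because 33597 genes were then compared. No paired analysis was possible because there was only 1 array per condition, and no array could be left out. Dim signals limit Cd24a, whose fold of CpG over IFN-γ + αIL-10R ran from 0.44 to 0.89 on the log2 scale.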
